A study of Drosophila melanogaster with 8 samples.

Results

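Many Drosophila genes have more than 1 promoter, and the sites examined here are those where CDK9 was bound at an internal start, well inside the gene, and away from the most upstream start of any gene. Overlapping peaks of 4 CDK9 peak lists were merged into 5531 regions, 4204 of them autosomal. A region was counted as an internal alternative start if it was autosomal, lay within 500 bp of an annotated start of a protein-coding gene more than 1500 bp downstream of the most upstream start of that gene, and had no most upstream start of any gene within 1500 bp. This left 277 regions in 218 genes. The choice used position only, and the strength of a peak played no part beyond its being called.

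The peaks come from chromatin immunoprecipitation followed by sequencing (ChIP-seq) with an antibody against CDK9 in Kc167 cells, an established female embryonic hemocyte (blood cell) line of *Drosophila melanogaster*. Mock cells went through transfection with no RNA, and siAGO2 cells received RNA against *AGO2*, an Argonaute of the RNA interference pathway that is also found on chromatin. Both groups were the same line, collected 3 days after transfection, with 2 CDK9 libraries each, so that n = 2 per group throughout and all statements hold for this 1 line. The study made the maps to ask whether loss of AGO2 alters CDK9 on chromatin.

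CDK9 is the kinase of P-TEFb, which it forms with Cyclin T. P-TEFb phosphorylates the C-terminal domain of RNA polymerase II (Pol II) and the factors that hold Pol II paused just downstream of a start, and this lets Pol II go on into the gene. An alternative promoter sets its own rate of initiation and pausing, and by starting inside the gene it can leave out upstream exons, so that the same gene gives products with other 5′ ends or other N-termini. Such promoters are common in long regulatory genes of the fly, among them nuclear receptors, zinc finger factors and signaling genes. In flies, GAGA factor and related proteins bind GAGAG repeats at many promoters with paused Pol II, and the initiator, with the core TCAGT, marks the site where transcription begins.

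Sequences around internal starts are shown because the letters at these sites were not used to choose them. They are the first 6 of the 12 highest regions by mean percentile within the lists, with 1 chromosome arm left out. Each runs from 150 bases before the annotated start to 20 bases from the start on, in the direction of the gene, from the RefSeq copy of assembly dm6. Capitals mark GAGAG, its reverse complement CTCTC, and TCAGT in the direction of the gene. The windows are *cpo* (chr3R:17943956-17944125, plus strand), *Syp* (chr3R:20782833-20783002, plus strand), *Tet* (chr3L:2821084-2821253, minus strand), *tai* (chr2L:9176208-9176377, plus strand), *CG6006* (chr3R:16158011-16158180, plus strand) and *CG13917* (chr3L:1586544-1586713, plus strand).
cpo: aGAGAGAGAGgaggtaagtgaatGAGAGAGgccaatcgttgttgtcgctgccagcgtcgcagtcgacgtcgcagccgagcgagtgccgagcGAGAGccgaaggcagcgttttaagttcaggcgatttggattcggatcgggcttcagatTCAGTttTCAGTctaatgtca
Syp: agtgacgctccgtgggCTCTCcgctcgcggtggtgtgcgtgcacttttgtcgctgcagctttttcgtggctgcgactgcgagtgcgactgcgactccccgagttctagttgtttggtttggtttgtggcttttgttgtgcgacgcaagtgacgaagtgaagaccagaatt
Tet: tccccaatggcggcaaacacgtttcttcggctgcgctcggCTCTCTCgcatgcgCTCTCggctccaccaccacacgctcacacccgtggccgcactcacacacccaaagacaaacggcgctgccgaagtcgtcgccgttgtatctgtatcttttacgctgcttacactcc
tai: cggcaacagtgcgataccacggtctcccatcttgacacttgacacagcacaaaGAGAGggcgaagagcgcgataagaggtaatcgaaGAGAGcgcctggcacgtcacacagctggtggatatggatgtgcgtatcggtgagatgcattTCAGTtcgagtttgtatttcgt
CG6006: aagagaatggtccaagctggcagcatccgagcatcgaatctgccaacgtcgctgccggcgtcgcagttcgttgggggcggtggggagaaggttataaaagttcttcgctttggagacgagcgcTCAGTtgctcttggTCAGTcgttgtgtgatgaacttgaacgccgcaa
CG13917: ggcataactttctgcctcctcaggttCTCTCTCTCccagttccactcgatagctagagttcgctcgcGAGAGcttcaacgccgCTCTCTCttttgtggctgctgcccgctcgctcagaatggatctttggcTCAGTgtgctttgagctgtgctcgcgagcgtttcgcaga
GAGAG was found on either strand, overlapping copies included, 6 times in the windows of *cpo* and *CG13917*, 3 times at *Tet*, 2 times at *tai*, 1 time at *Syp* and 0 times at *CG6006*. The windows of *cpo*, *tai*, *CG6006* and *CG13917* held TCAGT and those of *Syp* and *Tet* did not. Among these 6, a copy lay at the annotated start only at *cpo* and *tai*, where it began at -1 and -2 bases from the start. The copies of *CG6006* and *CG13917* lay farther upstream. The windows of the other 6 of the 12 regions, not printed, held GAGAG 5 times at *shot*, 2 times at *Pde8*, *ttk* and *ftz-f1*, 1 time at *Ntan1* and 0 times at *mam*. In these windows TCAGT began at -2 bases from the start at *Pde8* and *shot* and at 2 bases at *Ntan1*. It lay elsewhere in the window at *mam* and was absent at *ttk* and *ftz-f1*.

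To compare these letters with other starts, windows from 250 bases before to 50 bases from the start on were searched on both strands. GAGAG was present at 74.8% of the 258 starts to which the internal regions were assigned, at 43.5% of 1391 internal starts without a region and at 32.5% of 2318 most upstream starts with a region. The share was 86.0% for the 107 starts of regions found by all 4 libraries and 58.8% for the 85 starts of regions called in 1 library, against 48.7% of all 1710 eligible internal starts. Here an eligible start is an internal start that also lies more than 1500 bp from every most upstream start. Among these sets, GAGAG was thus most frequent at the internal starts with the most reproducible peaks. The most upstream starts with a region were not split by number of libraries.

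Windows with 3 or more copies of GAGAG made up 42.2% of the starts of internal regions, 14.1% of internal starts without a region and 9.36% of most upstream starts with a region. Base composition moved with this, as the mean GC content was 47.8%, 43.4% and 39.5% in the same sets, and its part in the motif shares was not tested. Around the summit, in 201 bases centred on it, GAGAG was present in 88.1% of the 109 internal regions called in all 4 libraries. The share was 54.3% of the 381 such regions at most upstream starts and 63.6% of the 118 such regions more than 1500 bp from any start. Over regions called in any library it was 66.8%, 35.5% and 30.8% in the same order. The share was thus higher with calls in all 4 libraries in each class, not only at internal starts. These shares are descriptions of the sequence, and a match is not evidence that a factor was bound.

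Other promoter letters were counted at the same 3 sets of starts. TCAGT in the direction of the gene, within 5 bases before to 10 bases from the start on, was present at 23.6% of the starts of internal regions, at 20.1% of internal starts without a region and at 10.1% of most upstream starts with a region. TATCGATA, the core of the DNA replication-related element of housekeeping promoters, was present at 0.388%, 1.01% and 17.2% of these sets in the same order. The share of TATAAA, on either strand, was 19.4%, 31.2% and 41.2%, and that of CACACA, a simple repeat, was 34.1%, 26.7% and 19.8%. TCAGT and CACACA thus had the order of GAGAG, while TATCGATA and TATAAA had the reverse order. The shares of TATCGATA, TATAAA and CACACA are over the windows of 300 bases. TCAGT can overlap CTCTC by the letters TC, and such overlaps were not removed.

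The 277 regions lay on arms 2L (50), 2R (70), 3L (64) and 3R (93), with 0 on chromosome 4. They were a median of 10197 bp downstream of the most upstream start of their gene (1557 to 136651 bp), where the median over all 1718 eligible internal starts was 6679.5 bp. Their genes were long, with a median of 26925.5 bp against 14760 bp for the 999 genes with an eligible internal start. In 245 of the 277 the start did not lie in an exon of another transcript, and in 32 it did. The region overlapped the start in 171 and lay 1 to 500 bp from it in 106. A total of 50 genes had 2 or more regions, 9 of which had 3 (*mam*, *fru*, *psq*, *Eip75B*, *CAP*, *CG17834*, *cnc*, *spi* and *LRR*), and some regions share a start, as all 3 at *spi* did.

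Regions near the distance limit ranked low on both sides of it. The 48 regions that lay 251 to 500 bp from the start had a median within-list percentile of 29.3, and 65 regions 501 to 1000 bp from an internal start, just outside the limit, had 33.0. The percentile is the rank of a peak by its deposited −log10 q within its own list, with 100 for the highest, averaged over the libraries that called the region.

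The libraries differed in background pileup, which stands here for depth because read totals were not used. The background pileup genome-wide, in reads per position as worked out from each list, was 2.29 and 1.21 in the mock libraries but 0.814 and 0.864 in the siAGO2 libraries. Their lists held 3103 and 3804 peaks against 1707 and 2295. In every count of peaks below, lower depth and fewer bound sites in siAGO2 cells cannot be told apart. Of 10 hemocyte marker genes 3 had a peak at a start (*srp*, *Pxn* and *Col4a1*), against 3 of 9 neuronal, 0 of 10 muscle and 0 of 10 fat body markers. Only *srp*, the GATA factor of blood cell fate, had it in all 4 libraries. *Hml*, *He*, *NimC1* and *eater* had none.

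Internal starts were found by all 4 libraries at a higher share than the other kinds of site. All 4 libraries called 109 of the 277 regions (39.4%), 3 libraries called 37, 2 called 35 and 1 called 96 (34.7%). The share in all 4 libraries was 18.5% over all 5531 regions, 18.7% over the 2042 autosomal regions at most upstream starts of protein-coding genes and 12.2% over the 967 autosomal regions more than 1500 bp from any start. The share called in 1 library was 56.6%, 49.9% and 72.1% of these sets in the same order. Of the 96 regions called in 1 library, 55 were in mock replicate 2, the longest list, 23 in mock replicate 1 and 9 in each siAGO2 replicate. The median percentile was 79.9 where all 4 libraries had a call and 27.5 where 1 had.

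The strongest of all lay at *Pde8*, which encodes a phosphodiesterase that breaks down cyclic nucleotides. The region (2R, 23666522 to 23667562) covered the start of 1 of 12 transcripts, 9568 bp inside the gene. Fold enrichment over the local background, as deposited, was 26.8 and 27.9 in the mock libraries against 21.9 and 31.3 after knockdown, from 144, 141, 87 and 105 reads at the summit. The siAGO2 values lay on both sides of the mock values. Its percentile lay between 99.7 and 99.95 in the 4 lists. At the most upstream start of *Pde8* a peak was called only in mock replicate 2, at 3.40-fold, and siAGO2 replicate 2, at 4.99-fold.

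The other regions among the 12 highest had lower fold than *Pde8* in each library. At *cpo*, which encodes an RNA-binding protein of the nervous system, the region (3R, 17943540 to 17944437) covered the start of 6 of 12 transcripts, and fold was 15.9 and 21.6 (mock) against 18.1 and 25.3 (siAGO2). At *Syp*, the fly Syncrip, an RNA-binding protein of mRNA localization (3R, 20782517 to 20783377), it was 8.98 and 24.7 against 15.2 and 16.1. At *tai*, a coactivator of the ecdysone receptor (2L, 9175933 to 9176621), it was 17.9 and 24.6 against 20.4 and 20.5. In all of these the ranges of the groups overlapped, and mock replicates 1 and 2 differed from each other by more than the group means did. Fold is not comparable between libraries beyond their background, and mock replicate 1 had the lowest fold at 9 of the 12 regions. Overlap of fold ranges, here and below, is thus a description and not a test of the knockdown.

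*Tet*, the fly member of the TET dioxygenases (3L, 2820785 to 2821667), had a fold of 12.5 and 22.6 against 10.2 and 16.3, at a start 58055 bp inside the gene. *Ntan1*, an amidase of protein N-termini (2R, 18652597 to 18653347), had 15.5 and 16.4 against 16.2 and 23.9. *CG6006* (3R, 16157786 to 16158388) had 8.20 and 18.2 against 14.8 and 23.1. None of the 3 separated the groups, and none had a peak at its most upstream start in any library.

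The rest of the 12 highest regions were *mam*, the coactivator of Notch, *CG13917*, *ttk*, a BTB zinc finger repressor, *ftz-f1*, a nuclear receptor of the ecdysone cascade, and *shot*, a spectraplakin that links actin to microtubules. Their fold ranged from 7.45 at *shot* in mock replicate 1 to 17.9 at *ftz-f1* in mock replicate 2. At *mam* (2R, 14008218 to 14008788) the summit lay between -754 and -741 bp from the start (minus is upstream), farther than at any other of the 12, while at *ftz-f1* (3L, 18765680 to 18766176) it lay between -84 and -55 bp. The plot of fold at the 12 regions shows that mock replicate 1, the library with the highest background, had the lowest value at 9 of them.

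**Figure D1:**
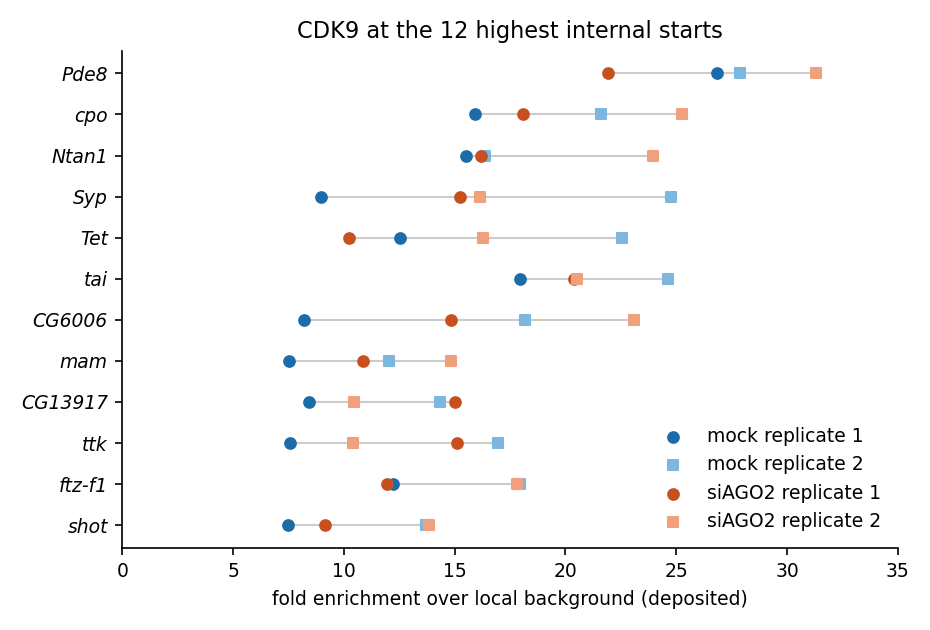
Deposited fold enrichment of the CDK9 peak at the 12 internal starts with the highest mean percentile (horizontal axis, linear scale) for each of the 4 libraries, with a grey line from the lowest to the highest. *Pde8* is highest, between 21.9 and 31.3, and at no gene do both siAGO2 points lie below both mock points.

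Within each list, peaks at internal starts ranked above peaks at most upstream starts. The median percentile at internal starts was 72.2 and 67.0 for mock replicates 1 and 2 against 63.8 and 73.1 for siAGO2 replicates 1 and 2. At most upstream starts it was 55.2 and 48.8 against 47.2 and 48.0. At peaks more than 1500 bp from any start it was 41.7, 47.3, 50.3 and 44.8 in the same order, so that internal starts were highest in all 4 lists.

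The difference between internal and most upstream starts was 19.2 ± 4.03 percentile points (SD, n = 4 libraries), above 0 in 4 of 4, and between 16.5 and 25.2 (exact sign-flip permutation test, two-sided, p = 0.125, the smallest that 4 libraries allow). Among regions called in all 4 libraries the same difference was 8.94 points. Against the most upstream starts of genes that also have an internal start it was 11.6 points (both p = 0.125 by the same exact test). Both of these comparisons were chosen after seeing the data.

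**Figure D2:**
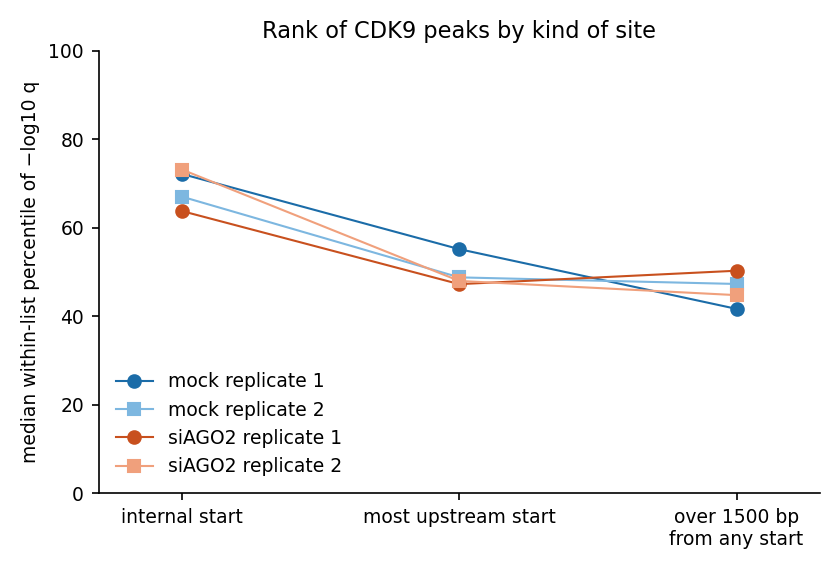
Median within-list percentile of −log10 q (vertical axis, 0 to 100) of autosomal CDK9 peaks at internal starts, at most upstream starts and more than 1500 bp from any start, 1 point per library joined by a line. In each library the internal starts are highest, between 63.8 and 73.1.

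The same order was seen in fold and reads. Median fold at internal starts was 4.35, 5.67, 5.83 and 6.32 in the same order, and at most upstream starts 3.78, 4.60, 5.12 and 4.90. The median peak at an internal start held 26, 21, 17 and 17 reads at the summit. Regions at internal starts were also wider, with a median of 353 bp against 284 bp at most upstream starts.

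Peaks at internal starts were concentrated at the top of the lists. Among peaks in the top 10% of a list, internal starts made up 17.1%, 19.6%, 20.5% and 19.4% of the autosomal peaks in the order above. In the lowest 10% they made up 3.42%, 6.29%, 7.63% and 6.18%. The share of internal-start peaks that fell in the top 10% was 21.5%, 23.7%, 16.6% and 19.6%, while for most upstream starts it was 10.8%, 7.98%, 9.62% and 8.24%.

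**Figure D3:**
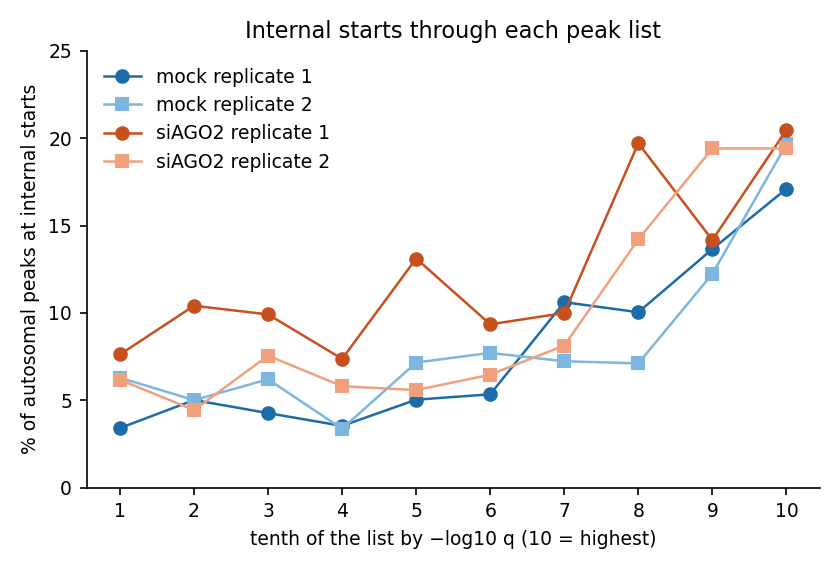
Percent of autosomal CDK9 peaks that lay at internal starts (vertical axis) in steps of 10% of each list ordered by −log10 q (horizontal axis, step 10 is the highest), with 1 line per library. The share is between 3.42% and 7.63% in the lowest step and between 17.1% and 20.5% in the highest.

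Set against the annotation, CDK9 was found at a minority of internal starts. Of the 1718 eligible internal starts, 11.9% and 16.1% had a peak within 500 bp in the mock lists against 10.6% and 12.1% after knockdown. Of the 11749 most upstream starts of autosomal protein-coding genes, 10.1%, 16.3%, 6.50% and 9.30% had one. In all 4 libraries it was 8.32% and 4.15%. The most upstream starts of the 999 genes with an eligible internal start had a peak in 13.5%, 22.3%, 12.1% and 13.9%, a higher share than their internal starts in each library. In all 4 libraries it was 8.01% at these upstream starts, and in any library 25.8% against 18.7% at internal starts.

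Peaks at internal starts were then set beside those at the most upstream start of the same gene. Of the 218 genes, 139 (63.8%) had no peak at the most upstream start in any library, where the share over all 999 genes with an eligible internal start was 74.2%. Of the 98 genes with an internal peak in all 4 libraries, 58 had none at the most upstream start in any library, 14 had one there in all 4 and 26 in 1 to 3 libraries. Because genes entered by their internal peak, the count over all 999 genes with an eligible internal start is given as well. Counting only regions called in all 4 libraries, 92 of them had one at internal starts only, 64 at the most upstream start only, 16 at both and 827 at neither. In these 4 counts a peak called in fewer libraries was taken as none. In any library it was 154 at internal starts only, 176 at the most upstream start only, 82 at both and 587 at neither. Within a library, genes with an internal peak only outnumbered those with an upstream peak only in mock replicate 1 (124 and 105) and in siAGO2 replicates 1 (113 and 93) and 2 (120 and 106), and in mock replicate 2 they did not (142 and 157).

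Where a library had a peak at both kinds of start of 1 gene, the internal one ranked higher in the median gene. Such genes numbered 30 and 64 in the mock lists against 27 and 32 after knockdown, and the median difference was 9.89, 6.91, 14.4 and 8.92 percentile points. The mean of 10.0 ± 3.14 points (SD, n = 4 libraries) was above 0 in 4 of 4 (exact sign-flip permutation test, two-sided, p = 0.125, the smallest possible). The internal peak was higher in 60.0%, 57.8%, 70.4% and 62.5% of genes, so that many genes went the other way. The mean was 6.45 points for genes with 1 internal region and 4.48 points for the 14 genes with both peaks in all 4 libraries (both p = 0.125 by the same exact test, chosen after seeing the data).

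**Figure D4:**
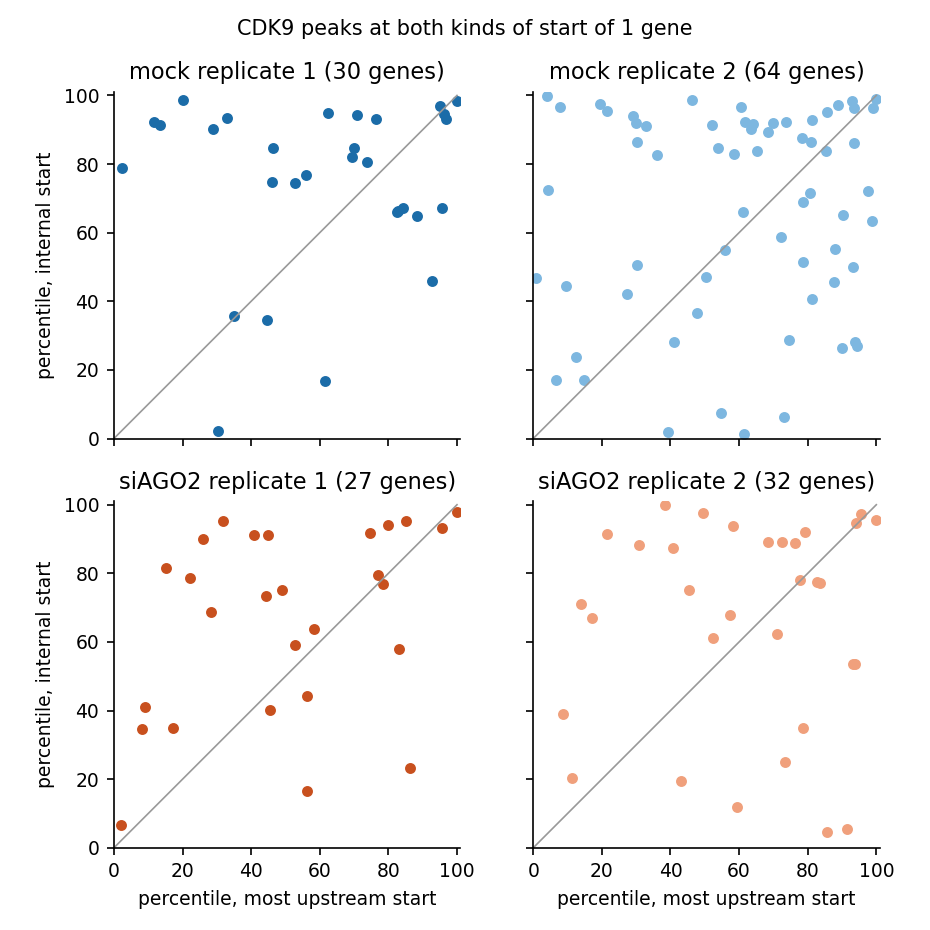
Within-list percentile of the highest CDK9 peak at an internal start (vertical axis) against that at the most upstream start (horizontal axis), 1 point per gene with both in that library, 1 panel per library. Points above the grey line of equal percentile are 60.0%, 57.8%, 70.4% and 62.5% of the genes in the panels, read from left to right and from top to bottom.

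Among those 14 genes, 5 had the higher peak at the internal start in all 4 libraries, 2 at the most upstream start in all 4, and 7 were mixed. *cnc*, the fly relative of the Nrf factors of the oxidative stress response, had the largest mean difference, 40.1 points, with an internal fold of 5.68, 11.3, 5.58 and 7.98 and an upstream fold of 2.82, 7.63, 4.18 and 4.72 (mock replicates 1 and 2, then siAGO2 replicates 1 and 2). *Gdap2* followed with 39.1, *CG6424* with 25.4 and *srp* with 20.7 points. *srp* had an internal fold of 5.31, 11.2, 8.20 and 6.76 and an upstream fold of 4.70, 11.7, 4.49 and 5.53, so the fold at its 2 starts was not ordered alike in every library.

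At the other end, *Pdp1*, a PAR-domain bZIP factor of the circadian clock and of muscle, had a mean difference of -34.6 points and *Mef2*, the MADS-box factor of muscle differentiation, of -25.4 points. The internal fold of *Pdp1* was 4.11, 5.17, 4.32 and 4.42 and its upstream fold 5.93, 6.15, 9.58 and 7.39, lower inside the gene in every library. *CG32369* was at -12.3 points. *ttk* was at -2.25 points with strong peaks at both starts, 7.56, 17.0, 15.1 and 10.4 at the internal start and 23.2, 46.1, 23.7 and 36.8 at the most upstream start.

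CDK9 summits lay farther upstream at internal starts than at regions of most upstream starts. At internal regions the summit was placed from the internal start assigned to the region. At regions of most upstream starts it was placed from the nearest start of any protein-coding gene, which need not be the most upstream one. In both sets summits more than 500 bp from the start used were left out, and these rules also hold for the comparisons below. At internal starts the median position of the summit was -60 and -64 bp in the mock lists against -83 and -73 bp after knockdown, where minus is upstream in the direction of the gene. At regions of most upstream starts it reached 112.5 and 98.5 bp (mock) or 10 and 58 bp (siAGO2), downstream of the nearest start. Summits downstream of the start made up 31.6%, 29.0%, 17.5% and 22.97% at internal starts and 66.6%, 68.5%, 52.8% and 62.6% at most upstream starts.

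The difference was -139.75 ± 35.8 bp (SD, n = 4 libraries), below 0 in 4 of 4 (exact sign-flip permutation test, two-sided, p = 0.125, the smallest possible). To leave out divergent pairs of genes, the comparison was restricted to most upstream starts with every start within 1500 bp on the same strand. There the median was 24 and 23.5 bp for mock cells against -20 and 0 bp after knockdown, and the difference was -76.9 ± 11.1 bp (the same exact test, p = 0.125, chosen after seeing the data). It remained below 0 in 4 of 4 libraries and was 1.82 times smaller. The internal starts were not restricted in this way.

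**Figure D5:**
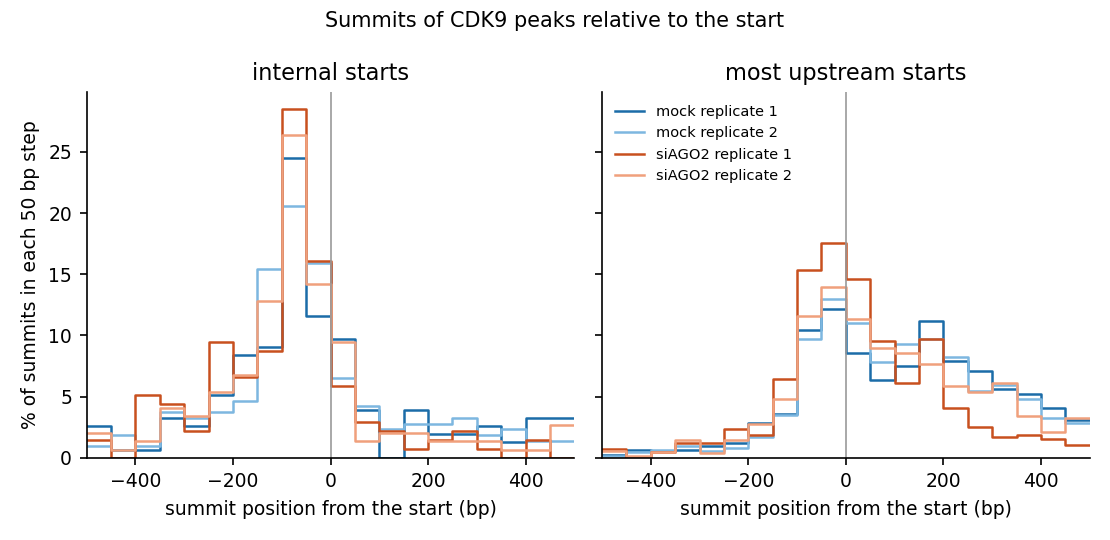
Percent of summits (vertical axis) in steps of 50 bp from 500 bp upstream (minus) to 500 bp downstream of the start (horizontal axis, bp) at internal starts (left) and most upstream starts (right), 1 line per library. At internal starts the medians lie between -83 and -60 bp and at most upstream starts between 10 and 112.5 bp. Summits in the right panel are placed from the nearest start of any protein-coding gene.

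The number of internal starts with CDK9 was compared between mock and siAGO2 cells to ask whether AGO2 knockdown altered them. The mock lists held 173 and 231 of the regions and the siAGO2 lists 149 and 160. The means were 202 ± 41.0 and 154.5 ± 7.78 (SD, n = 2), a ratio of 0.765 with no overlap between the groups (exact permutation test, two-sided, p = 0.33, the smallest that 2 against 2 allow). With all lists shortened to the length of the shortest by −log10 q the direction turned, with 132 and 141 in mock against 149 and 137 in siAGO2 cells, a ratio of 1.05 and overlapping groups (exact permutation test, p = 0.667).

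As a share of autosomal peaks, internal starts took 7.70% and 8.18% of the mock lists against 12.3% and 9.72% after knockdown, and the groups did not overlap. The means of 7.94% ± 0.345 and 11.01% ± 1.82 (SD, n = 2) differed by 3.07 percentage points (exact permutation test, two-sided, p = 0.33, the smallest possible). With lists of equal length the shares were 10.8% and 11.2% against 12.3% and 11.2%, and the difference was 0.744 points with overlapping groups (exact permutation test, p = 0.667). Without siAGO2 replicate 1 the full-list difference was 1.76 points. The siAGO2 lists were thus shorter, with fewer internal regions but a larger share of peaks at internal starts, and the cause was not tested.

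Most internal starts of mock cells were also called after AGO2 knockdown. Of 147 internal regions with a call in each mock library, 135 (91.8%) were called in a siAGO2 library, against 78.1% for most upstream starts and 80.9% over all regions. Of the 122 called in both siAGO2 libraries, 98.4% were called in a mock library. Regions in both mock and neither siAGO2 library numbered 12 (4.33%), where the share over all 5531 regions was 6.07%. Regions in both siAGO2 and neither mock library numbered 2 (0.722%), where it was 0.416%. With lists of equal length these counts were 5 and 7, and the shares over all regions were not counted there.

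The regions of mock cells alone were of middle rank. The highest was at *kn* (2R, 14798949 to 14799424), which encodes the EBF factor Collier, with a fold of 4.88 and 6.14 and a mean percentile of 76.3. *CG9003* followed at 62.4, *NK7.1*, a homeobox gene, at 58.7, *vri* at 51.9 and *LRR* at 50.9. *vri*, a bZIP repressor of the circadian clock shown by the study, had this region (2L, 5305295 to 5305670) 16706 bp inside the gene at a start of 3 of 5 transcripts, with a fold of 4.16 and 6.53 from 13 and 14 reads. The 2 regions of siAGO2 cells alone were at *fray*, a Ste20-like kinase (3R, 18584366 to 18584727; fold 6.45 and 3.13), and *wun*, a lipid phosphate phosphatase (2R, 9408879 to 9409217; 3.59 and 5.48), both from 8 to 11 reads. A region without a call may have held reads below the authors' threshold.

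The order of internal starts within the lists was then compared between the groups. Of the 109 regions called in all 4 libraries, 0 differed after adjustment over all 1022 such regions of the series, of which 0% passed (limma, smallest adjusted p of the 109 regions 0.671). An unadjusted p under 0.05 was found for 7 (6.42%), where the share over all 1022 was 6.46%. A total of 56 ranked higher and 53 lower in siAGO2 cells, and the median difference was 0.04 normal scores beside -0.01 over all 1022, with a median standard error of 0.394. With the replicate number as a block 1 of the 109 passed, a second region of *mam* (2R, 14031336 to 14031984; adjusted p = 0.00809 in limma), and 2 of all 1022 regions did (0.196%). The labels give only a shared number, so it is not known whether this fit rests on paired samples.

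That region, 40460 bp inside *mam*, is named after its values were seen. It had a fold of 4.97 and 6.60 in mock cells against 2.79 and 3.39 after knockdown, at percentiles of 88.0 and 85.9 against 0.879 and 19.3, with no overlap between the groups. Its difference was -2.31 ± 0.461 normal scores (SE; limma without the block, adjusted p = 0.671). With the block the difference was the same and the SE was larger, 0.532. The smaller p with the block thus did not come from a more precise estimate. The stronger region of *mam*, at another start of the gene, had percentiles of 98.1 and 98.4 against 97.0 and 98.3.

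Among the 5 functional gene lists given here, the ecdysone response had the largest share of genes with an internal CDK9 region. Of the 999 genes with an eligible internal start, 216 (21.6%) had an internal region, and that share is the background for each list. In the ecdysone list it was 6 of 8 genes, all with a region in all 4 libraries, namely the nuclear receptor genes *EcR*, *Eip75B*, *Eip78C* and *ftz-f1*, the ETS factor gene *Eip74EF* and the kinase gene *Eip63E*. *Blimp-1* and *Eip93F* had no peak at any start. The highest after *ftz-f1* was *Eip74EF* (3L, 17576295 to 17577095), with a fold of 7.70 and 14.2 (mock) against 5.32 and 9.89 (siAGO2). *EcR*, the ecdysone receptor, varied between the lists, with 3.53 and 3.75 against 3.52 and 7.39, at percentiles of 66.5, 59.2, 12.7 and 85.4. The list was chosen with earlier results of these data known, and no test was made on it.

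*Eip75B* carried 3 internal regions, 64875, 93257 and 102882 bp inside the gene. The first (3L, 17999449 to 17999759) had a fold of 5.47, 11.2, 7.25 and 6.83 in that order of libraries. The region at 93257 bp had 5.22, 9.67 and 8.41 and no call in siAGO2 replicate 1. *fru*, a BTB zinc finger gene of sexual behavior, likewise had 3 regions, all called in all 4 libraries and 64910, 95332 and 98257 bp inside the gene, with folds between 4.77 and 9.89. At each of the regions of both genes with 4 calls the ranges of the groups overlapped.

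Of 13 BTB, zinc finger and other transcription factor genes with an eligible internal start, 6 had a region (*ttk*, *pnt*, *fru*, *psq*, *hth* and *pros*), 4 of them in all 4 libraries. *pnt*, the ETS effector of EGF receptor signaling, had a fold of 5.66 and 18.7 (mock) against 12.3 and 11.4 (siAGO2) at 50929 bp inside the gene. *psq*, which itself binds GAGAG repeats, had 4.18 and 6.98 against 5.70 and 5.32. *lola*, *ab*, *chinmo*, *rib*, *dl*, *Dif* and *cic* had an eligible internal start and no internal region.

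Of 12 signaling genes (kinases, phosphatases and genes of cyclic nucleotide signaling) with an eligible internal start 4 had an internal region (*Pde8*, *par-1*, *InR* and *Btk*). *par-1*, a kinase of cell polarity, had a fold of 5.33 and 12.1 (mock) against 7.69 and 17.3 (siAGO2). *InR*, the insulin receptor, had 5.24 and 6.90 against 7.27 and 5.38 at a start 29130 bp inside the gene. *Btk*, a non-receptor tyrosine kinase, had 3.62 in mock replicate 1 and 7.10 and 6.06 in siAGO2 cells, with no call in mock replicate 2. None of these ranges parted mock from siAGO2 libraries where all 4 had a call.

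Of 5 hemocyte genes with an eligible internal start 3 had an internal region. *srp* is described above, *ush*, the FOG cofactor of GATA factors, had a fold of 4.99 and 10.98 (mock) against 4.72 and 8.47 (siAGO2), and *LanB1*, a laminin chain, had a call in mock replicate 2 alone. Of the 2 elongation and pausing genes with an eligible internal start, *CycT*, the cyclin partner of CDK9, and *lilli*, a subunit of the super elongation complex, 0 had an internal region. *AGO2* itself has an eligible internal start and had no internal region, though a peak lay at a start of the gene in all 4 libraries.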

How the data were processed

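CDK9 ChIP-seq peak lists of 2 mock and 2 siAGO2 libraries of Kc167 cells were analysed, and the matching input libraries were not used here. Replicates are separate samples by their titles, and p-values measure only the spread between them. Per the labels and the study's methods, the authors trimmed reads with cutadapt, aligned them to dm6 with Bowtie2, removed multimapping and duplicate reads (Picard) and called peaks in each library with MACS2 (2.1.1.20160309). The MACS2 settings for CDK9 are not given in the sources used here. The deposited fold enrichment is the pileup at the summit over the local background, with a pseudocount of 1 on each side. The −log10 p and −log10 q were deposited by the authors as MACS2 gave them, and the deposited score is the whole-number part of 10 times that −log10 q. A last column gives the summit.

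Peaks overlapping by 1 bp or more were merged. Starts came from Ensembl release 115 (18277 genes), whose coordinates are those of dm6, and sequence from RefSeq. Coordinates count from 1. Reads at a summit were solved from fold and p-value under a Poisson model, within 0.0005 of the −log10 p, for 100% of peaks. Read totals were not used, so depth is known only as this background, and fold is not comparable between libraries beyond it. Percentiles are ranks within 1 list. Groups were compared by exact permutation tests of the means and libraries by exact sign-flip permutation tests, both two-sided, which cannot go below 0.33 and 0.125. Ranks of regions called in all 4 libraries, as normal scores, were fitted with limma 3.58.1 (R 4.3.3) with Benjamini-Hochberg adjustment over all 1022 regions. Scripts were tested on simulated data.

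The members and lists were chosen with earlier results of these data known. Genes were named by rule: the 12 regions called in all 4 libraries with the highest mean percentile, up to 5 per group among regions of 1 group alone, the 4 largest and 4 smallest differences within a gene, up to 4 per gene list, and genes the study showed, with further members of the lists named by their calls. Deviations from the group means were unrelated in libraries of the same replicate number (r = 0.00101 over 1022 regions). The labels do not say whether libraries of the same number were prepared together. Alternatives were equal list lengths, a stricter threshold, other distances, a stricter overlap, fold in place of −log10 q, plain percentiles, regions in at least 3 libraries, each library left out and the replicate block. The result of 1 further gene list is not reported here.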

Additional observations from a re-analysis of the deposited data

How the results depend on the processing

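The higher rank of internal starts, the difference within genes and the upstream summit kept their direction under every alternative run, with smaller sizes in the report's restricted sets. Among peaks above the median −log10 q of their list the difference within genes was 6.19 points and the summit difference -86.1 bp. Why these were smaller was not tested. Leaving out each library gave rank differences between 16.9 and 20.2 points and differences within genes between 8.58 and 12.1 points. The share of autosomal peaks stayed higher in siAGO2 cells, between 1.76 and 4.28 points with a library left out. The ratio of region numbers was 1.05 in lists of equal length, where list length no longer differs by construction, and lay between 0.669 and 0.905 with a library left out.

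Regions of mock cells alone numbered 5 in lists of equal length and, with a library left out, from 18 when siAGO2 replicate 1 was dropped up to 67 when mock replicate 1 was, since 1 library then stands for its group. Regions of siAGO2 cells alone numbered 7 in lists of equal length, 0 above the median −log10 q, 1 and 4 with limits of 250 and 1000 bp and 6 with an overlap of 50% of both peaks, and from 4 when mock replicate 1 was dropped up to 13 when mock replicate 2 was. Shares over all regions were not counted under these settings. Whether internal starts differ there from the whole list was thus not tested, and neither was the cause.

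With the replicate block, the ratio was 0.772 and the share difference 3.07 points (exact sign-flip permutation test, p = 0.5, the smallest for 2 pairs), and limma called 1 region of the 109 and 2 of all 1022, where the plain fit called 0 of both. An unadjusted p under 0.05 was found for 5 of the 109 and 78 of all 1022 with the block, and for 7 and 66 without it. All further limma fits called 0 regions of either set, and such p-values were lowest at 1.69% of the internal regions when mock replicate 1 was dropped, beside 3.72% of all regions of that fit, and highest at 9.30% when siAGO2 replicate 1 was, beside 7.85%. Fits with 1 library in a group assume that it varies like the other group. Precision is limited by 2 libraries per group and by depth: the median internal-start peak rested on 17 to 26 reads at its summit, and a missing call is not absence.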
